A study of Mus musculus with 18 samples.

Results

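Ncl, Npm1 and Gnl3 encode 3 abundant proteins of the nucleolus, the nuclear compartment in which ribosomal RNA is made and assembled into ribosomal subunits. These genes are 3 of the 21887 protein-coding genes that the annotation places on the chromosomes used here. They were chosen by name with their MYC peaks in these lists already known, so the presence and height of a peak are given as descriptions without a test. Every MYC peak was taken whose summit lay inside the RefSeq span of one of the genes or within 5 kb of either end, which gave 31 of the 10376 deposited peaks.

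Tumours of the liver from FVB mice, stored frozen, were profiled by ChIP-seq (immunoprecipitation of MYC with the DNA it sits on, then sequencing), with 9 MYC libraries and 9 input libraries. All tumours carried LAP-tta and TRE-MYC, a system in which a liver promoter drives the tetracycline transactivator and MYC is switched on when doxycycline is taken out of the drinking water. WT tumours carried floxed Arid1a alleles (Arid1aflfl) and no Cre, Het tumours Arid1afl/+ with Alb-cre, and Homo tumours Arid1afl/fl with Alb-cre. Arid1a encodes a DNA-binding part of SWI/SNF, a complex that remodels chromatin, and Alb-cre deletes floxed alleles in cells that use the albumin promoter. Each genotype had 3 MYC libraries. WT mice were aged about 55 days, Het mice 70 days and Homo mice 100 days, so genotype, Cre and age cannot be told apart. Nothing in the labels ties the replicates to different animals, and p-values then measure only the spread between these libraries, which may be technical. The tumours were taken as bulk tissue, in which fewer cells with MYC on a site and less MYC per cell cannot be told apart.

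The 9 lists differed widely in length, from 51 peaks in Homo replicate 2 and 92 in WT replicate 1 to 4291 in WT replicate 3. The lowest background of a list was taken over at most its first 150 peaks, and stands in for the depth of its MYC library. It ranged from 1.49 reads per position in Homo replicate 2 to 2.96 in Het replicate 1. WT replicate 1, with a short list, was not shallow by this measure (2.52 reads). A gene without a peak in a short list is a gene without a call, which does not show that MYC was absent, and the lowest −log10 p that a list held ranged from 5.27 in WT replicate 3 to 9.08 in Homo replicate 2. Homo replicate 2 and WT replicate 1 have the shortest lists, with Homo replicate 1 close behind at 112 peaks. Counts are given with and without Homo replicate 2 and WT replicate 1 where they change, a choice made after seeing the data. Peak lists hold no expression, so the tumour cell type and the loss of Arid1a were not checked here.

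Nucleolin, the product of Ncl, binds ribosomal RNA precursors and takes part in their transcription and processing. Nucleophosmin, the product of Npm1, is a chaperone of the granular component of the nucleolus, and nucleostemin, the product of Gnl3, is a nucleolar GTPase of proliferating cells. MYC binds DNA together with MAX at E-boxes, above all the CACGTG sequence, and drives many genes of ribosome production. Ncl and Npm1 have been described as MYC targets through E-boxes within the body of the gene, near its start.

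Sequences were available for promoter windows only, so those under the Ncl and Npm1 summits were not seen. The first sequence shown is the short stretch shared by Gnl3 and its neighbour Pbrm1, which encodes a SWI/SNF subunit. The spans of both genes are separated by 6 bp, and they run in opposite directions. The RefSeq promoter window of Pbrm1 (250 bases before to 50 after its start, GRCm38.p6, chr14:31018888-31019187, plus strand) held the summit of the Gnl3 end peak in each of the 6 libraries that had one. The window of Ncl (chr1:86359406-86359705, minus strand) is shown beside it because no MYC peak reached it. Capitals mark every CANNTG E-box, of which CACGTG is 1 case, both motifs being searched on both strands, on which their spelling is the same.

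Pbrm1 window, which contains the end of Gnl3: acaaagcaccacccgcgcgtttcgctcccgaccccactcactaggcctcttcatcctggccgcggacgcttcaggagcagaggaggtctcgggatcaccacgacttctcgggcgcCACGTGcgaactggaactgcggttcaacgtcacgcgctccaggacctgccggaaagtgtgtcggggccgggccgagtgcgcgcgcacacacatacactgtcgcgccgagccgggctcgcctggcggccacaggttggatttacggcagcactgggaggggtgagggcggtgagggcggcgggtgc

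Ncl window: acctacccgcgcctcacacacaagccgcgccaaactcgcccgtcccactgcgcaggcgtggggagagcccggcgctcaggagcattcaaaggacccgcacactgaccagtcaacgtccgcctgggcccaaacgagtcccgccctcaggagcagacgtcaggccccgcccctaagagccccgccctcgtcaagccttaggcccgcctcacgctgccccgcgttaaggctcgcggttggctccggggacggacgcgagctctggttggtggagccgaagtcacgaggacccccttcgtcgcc

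The Pbrm1 window held a single E-box, a CACGTG that starts at base 116 counted from the first base of the window, at position 31019003 to 31019008 on chromosome 14. The 6 summits lay at bases 91, 92, 105, 112, 130 and 146 of the same window, on both sides of the motif and at most 27.5 bp from its centre, and all 6 peaks covered it. No CANNTG was found in the Ncl window or in the Gnl3 window. The Gnl3 window overlaps that of Pbrm1 but begins beyond the motif, and was reached by 6 peaks and by the summit of none. Of 32817 RefSeq promoter windows of 300 bases, 7.15% held CACGTG and 72.3% held CANNTG. Of the 797 windows that held a MYC summit in at least 2 libraries, 35.6% held CACGTG and 72.0% CANNTG, and their median GC content was 66.0%, against 52.7% for all windows. A match describes these letters only, and the windows of Ncl and Gnl3 say nothing of E-boxes outside them.

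**Figure D1:**
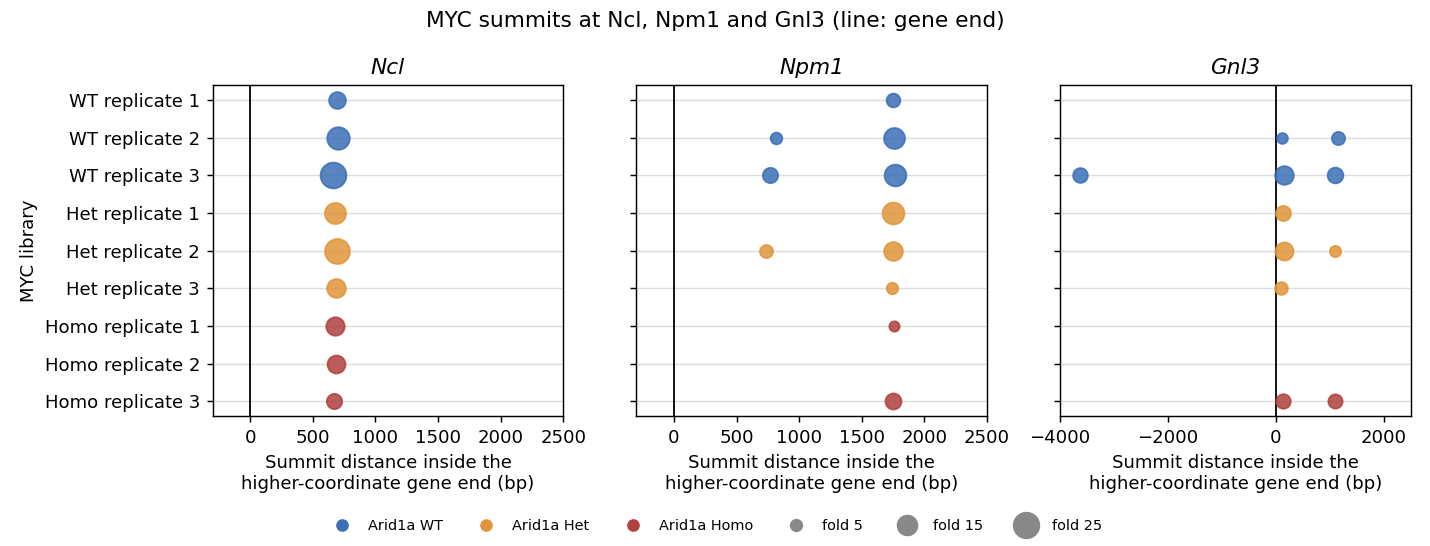
Position of each MYC summit at Ncl, Npm1 and Gnl3 in the 9 libraries. The horizontal axis gives the distance in bp inside the higher-coordinate end of the gene (negative values lie beyond it), each row is a library, colour is the genotype and point area is the authors' fold. Ncl has 1 column of points near 683 bp, Npm1 has columns near 1754 and 765 bp, and Gnl3 has columns near 136 and 1107 bp and a single point beyond the end.

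Ncl (chromosome 1, 86344719 to 86359455, mm10, minus strand) had exactly 1 peak in each of the 9 libraries. By the same rule, a peak in all 9 libraries was found at 0.064% of protein-coding genes. The span of Ncl, 14737 bp, is shorter than the median of 17169 bp over protein-coding genes. The summits lay between 86358752 and 86358793, a range of 41 bp, and 662 to 703 bp inside the end at which transcription starts. They were thus inside the gene and not at the end itself, and 347 bp separated the farthest reach of any Ncl peak from the promoter window. Exon bounds were not used here, so the summits are placed by distance and not by intron.

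The authors' fold over background at Ncl was 10.9, 19.5 and 25.5 in WT, in the order of the replicate numbers. It was 17.0, 23.8 and 13.6 in Het, and 13.0, 12.4 and 8.92 in Homo. The ranges of WT and Homo overlapped, through WT replicate 1, and the lowest Het value was above the highest Homo value. No test was run on folds, which are values of each list on its own and follow its depth and local background.

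The reads behind these folds were solved from the deposited fold and −log10 p, under an assumed form of both values. At the Ncl summit there were 156, 211 and 199 MYC reads in WT, 241, 171 and 115 in Het, and 114, 100 and 156 in Homo. For the lowest of these, Homo replicate 2, the exact Poisson 95% interval was 81.4 to 122 reads, and for the highest, Het replicate 1, it was 212 to 273 (intervals cover counting error only). The local background was between 5.13 and 14.3 reads. A called peak stands above its background by the way it is called, so this is no finding about Ncl. Set against its own list, the Ncl fold ranged from 1.23 times the list median in WT replicate 1 to 3.75 times in WT replicate 3.

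Divided by the lowest background of the same library, which stands in for its depth, the Ncl summit reached 79.5 ± 15.9 in WT, 87.1 ± 20.8 in Het and 65.4 ± 1.70 in Homo (mean ± SD, n = 3 each). The Homo values lay between 63.8 and 67.2, inside the WT range of 61.8 to 92.8 and below the Het range of 69.7 to 110. The lowest background rests on 2 peaks in Homo replicate 1, 5 in Homo replicate 3 and 8 in Het replicate 2. In the other libraries it rests on 10 to 35 peaks. In Homo replicate 3 the fold of 8.92 was the lowest of all 9 and the depth-scaled value of 63.8 the lowest after WT replicate 1. Its 156 reads equalled those of WT replicate 1, and its local background of 14.3 reads was the highest of the 9.

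**Figure D2:**
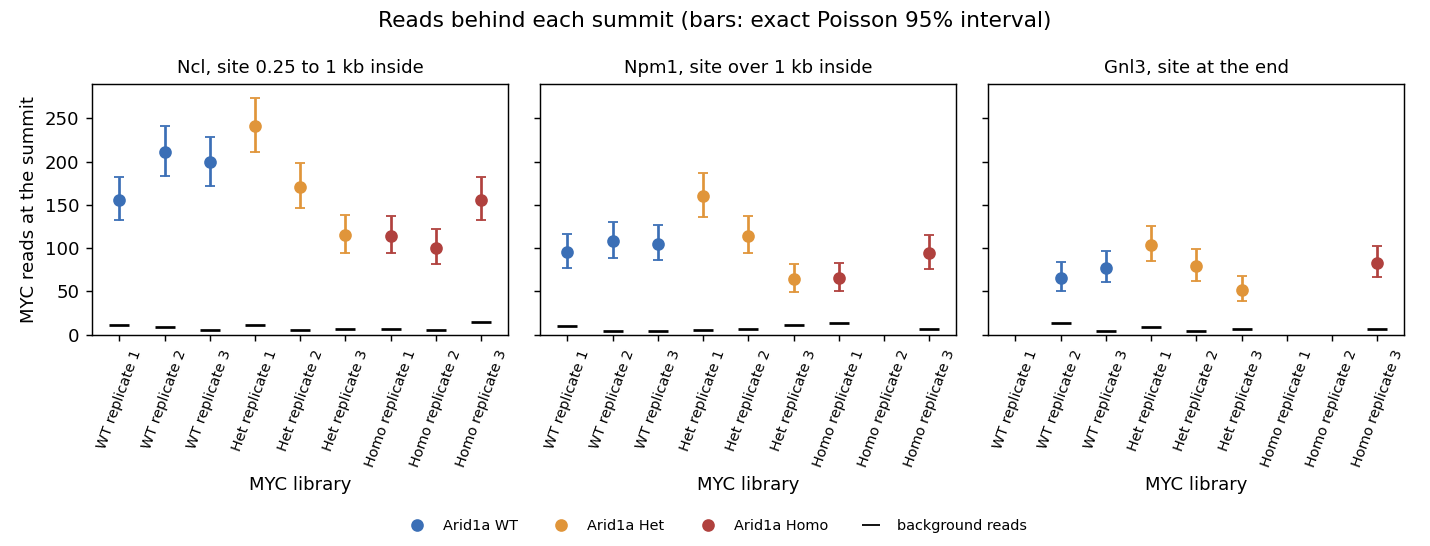
MYC reads at the summit (vertical axis, linear from 0) in each library for the site of Ncl, the inner site of Npm1 and the end site of Gnl3, with exact Poisson 95% intervals as bars and the local background as black dashes. Ncl ranges from 100 to 241 reads, Npm1 from 64 to 160 and Gnl3 from 52 to 104, all above backgrounds of at most 14.3 reads.

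Within its own list, the Ncl peak ranked by fold 15th of 4291 peaks in WT replicate 3, 10th of 1869 in Het replicate 2 and 2nd of 112 in Homo replicate 1. It ranked lowest in WT replicate 1, 32nd of 92, and in Homo replicate 3, 62nd of 303. The median rank was at 2.11% of the list, and between 1.95% and 4.23% with any 1 library left out. The value of 4.23% was reached without WT replicate 3, Het replicate 1, Het replicate 2 or Homo replicate 1, and 4.07% without WT replicate 2. By −log10 p, which weighs the number of reads as well, Ncl was 1st in Het replicate 2 and in Homo replicate 1 and 2nd in WT replicate 3. Ranks were not compared between genotypes, because the lists differ in length.

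No shift of the Ncl summit with genotype was found beyond the spread between libraries, and a small shift could be missed with 3 libraries per genotype. It lay 685 ± 21.1 bp inside the end in WT, 686 ± 8.62 bp in Het and 675 ± 8.50 bp in Homo (mean ± SD, n = 3 each). The two-sided exact permutation test of the sum of squares between genotypes gave p = 0.543 (adjusted p = 0.543 over 3 genes, smallest possible p 0.00357). Of the 16 regions with a peak in all 9 libraries, the range of summits was 41 bp at Ncl and between 25 and 513 bp (median 98 bp) in the other 15, of which 2 had a smaller range.

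Npm1 (chromosome 11, 33152498 to 33164142, mm10) had a peak in 8 libraries, all except Homo replicate 2. At least 8 libraries were reached by 0.196% of protein-coding genes. Its strand is not in the tables used here, so positions are given from the higher-coordinate end, the nearer one for each of its peaks. The main site lay 1745 to 1765 bp inside that end, at summits between 33162377 and 33162397. Over 8 libraries these summits spread over only 20 bp (SD 6.30 bp).

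The fold at this inner site was 7.26, 16.8 and 18.1 in WT, 18.3, 13.5 and 5.10 in Het, and 4.09 and 9.84 in Homo replicates 1 and 3. The corresponding reads were 95, 108 and 105 in WT, 160, 114 and 64 in Het, and 65 and 94 in Homo. The 3 groups overlapped in fold. In reads, Het overlapped both other groups, and Het replicate 3 was at the level of Homo replicate 1. The lowest WT value, 95, and the highest Homo value, 94, had overlapping Poisson intervals (76.9 to 116 and 76.0 to 115). Scaled by the lowest background of each library, the site reached 43.2 ± 5.64 in WT (n = 3), 55.5 ± 17.4 in Het (n = 3) and 37.8 ± 0.859 in Homo (n = 2). The scaled WT range, 37.7 to 48.9, overlapped the Homo range, 37.2 to 38.4, and the Het range was 38.8 to 73.5. The weakest call, in Homo replicate 1, had a −log10 q of 5.07 and a local background of 14.1 reads, the highest among the Npm1 peaks.

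A weaker Npm1 site lay 734 to 813 bp inside the same end and had a peak in WT replicates 2 and 3 and in Het replicate 2, which hold 3 of the 4 longest lists. Its folds were 5.24, 8.93 and 6.56, with 45, 60 and 40 reads. In each of these libraries the inner site was higher, by 3.20, 2.03 and 2.06 times in fold, and 944 to 1020 bp away. This weaker site is the only one within 1 kb of an end of Npm1, so that a rule of 1 kb from a gene end finds Npm1 in 3 libraries instead of 8. Of the 43 genes with a peak in at least 8 libraries by the rule used here, 14 had one within 1 kb of an end in at least 8 libraries, and 27 had one in 3 or fewer.

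By fold, the inner site of Npm1 ranked at a median of 8.95% of its list, from 24th of 1713 peaks in Het replicate 1 to 107th of 112 in Homo replicate 1. The median was 5.03% without any 1 of WT replicate 1, Het replicate 3, Homo replicate 1 and Homo replicate 3. Its rank was between 1.40% and 5.03% in WT replicates 2 and 3 and Het replicates 1 and 2, and between 76.1% and 95.5% in WT replicate 1, Het replicate 3 and Homo replicate 1. Summits were 1758 ± 7.02 bp inside the end in WT (n = 3), 1751 ± 4.93 bp in Het (n = 3) and 1752 ± 7.07 bp in Homo (n = 2), a difference within the spread of the replicates. The exact permutation test, two-sided, gave p = 0.436, which is 0.543 after adjustment over the 3 genes.

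In the 8 libraries that had both, Ncl had more reads at its summit than Npm1 each time, by 1.5 to 1.95 times, and the Poisson intervals did not overlap in any of the 8. By fold, Ncl was higher in 6 of them and Npm1 in 2, Het replicate 1 and Homo replicate 3. In those 2 libraries the local background at Ncl was 10.9 and 14.3 reads, against 5.46 and 6.34 at Npm1. The order by fold and the order by reads therefore disagree only there.

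**Figure D3:**
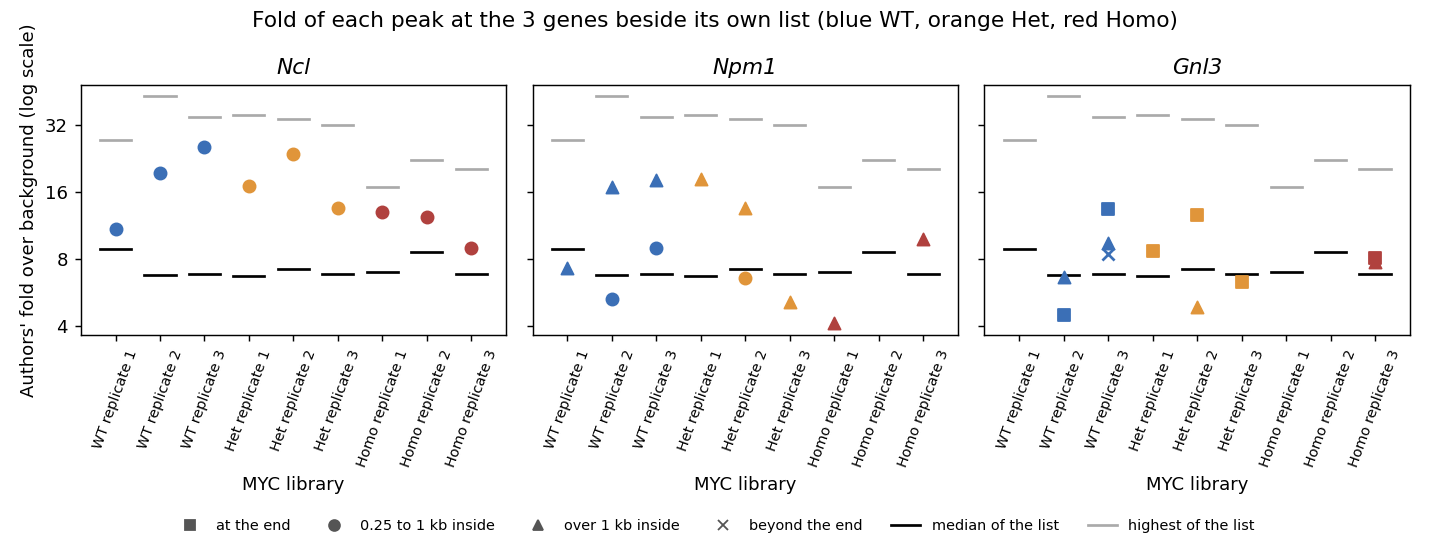
Authors' fold of every peak at the 3 genes (log axis) in each library, with marker shape for the distance of the site from the gene end. Black dashes are the median fold of the whole list and grey dashes its highest fold. Ncl lies above the median of all 9 lists, whereas the inner site of Npm1 falls below it in WT replicate 1, Het replicate 3 and Homo replicate 1.

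Gnl3 (chromosome 14, 31012433 to 31019131, mm10, minus strand) had a peak in 6 libraries, WT replicates 2 and 3, Het replicates 1, 2 and 3, and Homo replicate 3. At least 6 libraries were reached by 1.01% of protein-coding genes, and by 1.31% of the 4807 genes with spans of 6 to 16 kb. It had no call in WT replicate 1, Homo replicate 1 and Homo replicate 2, the 3 shortest lists. The end site, 98 to 153 bp inside the end, was present in all 6, with folds of 4.45 and 13.4 in WT replicates 2 and 3, 8.70, 12.6 and 6.26 in Het, and 8.07 in Homo replicate 3. Its reads were 66 and 77 in WT, 104, 79 and 52 in Het, and 83 in Homo. The single Homo value lay inside the range of the other genotypes in both measures.

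An inner Gnl3 site, 1091 to 1157 bp inside the end, had a peak in WT replicates 2 and 3, Het replicate 2 and Homo replicate 3. Folds there were 6.65, 9.46, 4.85 and 7.77, with 55, 60, 50 and 52 reads. It was higher by fold than the end site only in WT replicate 2 (1.49 times), where the end site had a local background of 13.1 reads and more reads (66 against 55). In the other 3 libraries its fold was 0.707, 0.386 and 0.963 of that at the end. Both sites were 938 to 1043 bp apart. A single peak lay 3633 bp beyond the end of Gnl3, inside Pbrm1, in WT replicate 3 (fold 8.37, 34 reads).

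The end site cannot be assigned to Gnl3 or to Pbrm1, since it lies at the ends of both. The inner site lies only within Gnl3. The highest Gnl3 peak ranked at a median of 24.9% of its list, from 209th of 4291 peaks in WT replicate 3 to 247th of 378 in Het replicate 3. Over 2 WT, 3 Het and 1 Homo library, the exact permutation test of its position gave p = 0.3 (0.543 after adjustment), which says nothing of a shift at either site, since Homo has 1 library and the highest peaks belong to different sites. The coordinate in Homo, of 1 library, was 522.5 bp above the mean of WT and so nearer the end, since the highest peak of WT replicate 2 was the inner one. With the site nearest the end in each library the same difference was 1.0 bp.

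**Figure D4:**
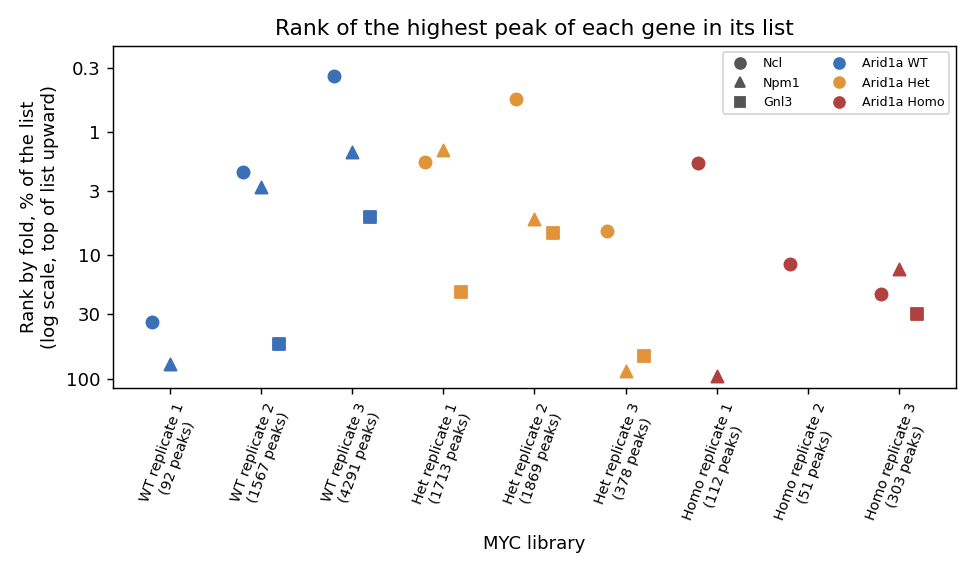
Rank by fold of the highest peak of each gene within its own list, in percent of the list length (log axis, top of the list upward), for the 9 libraries with their number of peaks. Ncl reaches 0.350% in WT replicate 3 and 34.8% in WT replicate 1, and Gnl3 is absent from the 3 shortest lists.

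Counted per library, all 3 genes had a peak in WT replicates 2 and 3, Het replicates 1, 2 and 3 and Homo replicate 3. The same rule held for 7.92% and 20.6% of protein-coding genes in WT replicates 2 and 3, for 8.85%, 9.65% and 1.6% in the Het replicates in order, and for 1.54% in Homo replicate 3. WT replicate 1 and Homo replicate 1 had peaks at Ncl and Npm1, where 0.274% and 0.599% of genes had one. Homo replicate 2 had a peak at Ncl alone, where 0.201% of genes had one. Without WT replicate 1 and Homo replicate 2, Ncl had a peak in 7 of 7 libraries, Npm1 in 7 and Gnl3 in 6. The remaining library without a Gnl3 peak was Homo replicate 1, which has the next shortest list. As the genes were chosen with these peaks known, nothing is read from the distance between their counts and these shares. The rule's window cut through no cluster of peaks. The nearest summits left out lay 82.9 kb from Ncl, 619 kb from Npm1 and 10.8 kb from Gnl3.

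Small RNA genes lie inside 2 of the 3 genes and have no peak of their own. In Ncl these are the small nucleolar RNA genes Snora75 and Snord82 and the microRNA gene Gm24148, and in Gnl3 Snord69, Snord19 and LOC115488429. Small nucleolar RNAs guide the chemical modification of ribosomal RNA. The nearest Ncl summit was 2.43 kb from Snord82, and the nearest Gnl3 summit 1.70 kb from Snord19. The other genes of the windows were the long noncoding RNA gene C130036L24Rik, which starts 128 bp beyond the end of Ncl, and Glt8d1, which overlaps the far end of Gnl3 by 9 bp. Neither had a summit in its promoter window from these peaks. C130036L24Rik runs on the plus strand, so all 9 Ncl summits lay before its start and within 1 kb of it. Whether this Ncl site serves C130036L24Rik as well was not tested. Npm1 had no neighbour within 5 kb.

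Other nucleolar genes, listed for ribosomal RNA synthesis, modification and subunit assembly with earlier results of these data known, were counted by the narrower rule of 1 kb from a gene end, by which Ncl has 9 libraries, Npm1 3 and Gnl3 6. A summit within 1 kb of an end was found in at least 2 libraries for 27 of 49 genes, and for 8.03% of all protein-coding genes. Of the other 22 genes, 4 had 1 library and 18 had none. None reached 8 libraries by either rule. At least 6 libraries were reached by 1.01% of all protein-coding genes by the wider rule of 5 kb. This share was not computed by the narrower rule. The same 5 of the 49 genes reached 6 libraries by both rules. These were Polr1b, a subunit of RNA polymerase I (median fold 11.9), Wdr43 (8.42) and Nop56 (7.56), which work in the processing and modification of ribosomal RNA, the RNA helicase gene Ddx21 (8.27), and Nolc1 (7.45), whose product binds small nucleolar ribonucleoproteins. Ppan, a ribosome assembly factor, followed with 5 libraries and a median fold of 13.7. In replicate order, 0, 21 and 31 of the 49 had a peak in WT, where 0.0731%, 4.86% and 14.1% of all protein-coding genes had one. The counts were 20, 22 and 7 in Het, beside 5.58%, 6.14% and 0.854% of all genes, and 5, 0 and 5 in Homo, beside 0.324%, 0.0548% and 0.918%. Both the counts and the shares over all genes were low where the lists were short, and nothing is read from them about genotype.

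Of 4 genes related to Npm1 or Gnl3 that were looked up, 1 had a peak. Npm3, a relative of nucleophosmin, had a peak in WT replicates 2 and 3 only (folds 6.24 and 6.77), and Npm2, the oocyte form, in none. Gnl2 and Gnl3l, which encode related nucleolar GTPases, had no peak within 5 kb in any library. Nat10 and Noc2l had no peak within 1 kb of an end, but had one in 5 libraries by the wider rule, as had Ubtf in 4. These last 3 were singled out after their values were seen.

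The genes most like each of the 3 were found by the Jaccard index of the libraries with a peak within 1 kb of an end, over 9 libraries. For Ncl, Pde4a and Ube2cbp had the same 9 libraries (index 1.0), with median folds of 12.4 and 9.28 beside 13.6 at Ncl. Pemt and the adjoining pair Ccdc146 and Fam185a shared 8 (index 0.889). For the 6 libraries of Gnl3, 48 genes had the identical set, and those nearest in median fold were Dnajc13 (8.39), Wdr43 (8.42), Smarca4, the ATPase gene of SWI/SNF (8.47), Ddx21 (8.27) and Gm46390 (8.56), beside 8.38 at Gnl3. For the 3 libraries in which Npm1 met this narrower rule, 111 genes had the identical set, among them Rprd2, Ehmt1, Atad3a, Cdk5 and Csrp2. Likeness here means only the same libraries.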

How the data were processed

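The 9 MYC peak lists of 3 Arid1a genotypes were analysed; the 9 input samples had no file used here. Per the submitters' processing notes, the tools were MACS2 2.0.10.20131216, Bowtie2 2.2.3, HOMER and Picard, on mm10. The calling threshold and the use of the inputs are not stated there or in the lists. Each library has its own list, so the library is the replicate. The lists, in the format of the peak caller and without a header, give the authors' fold over background (a ratio), the deposited −log10 p and −log10 q, and a deposited whole-number score, which equals 10 times the −log10 q cut to a whole number and was not used. Summits were taken as the deposited offset from the peak start and written 1-based.

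Gene spans came from RefSeq GRCm38.p6, the assembly behind mm10, and promoter sequences and strands from the RefSeq table of the same build, in which Ncl and Gnl3 were found (2 of the 3 genes). The genes and lists were chosen with earlier results of these data known. The members, all genes in their windows, the 5 genes most alike for each, the 6 other nucleolar genes with the most libraries, and the relatives of Npm1 and Gnl3 were named by rule.

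Reads at the summit and local background were solved from the fold and −log10 p of each peak, with Python 3.11.15 and SciPy 1.17.1. The assumption was that the caller adds 1 to reads and background in the fold and takes p from a Poisson tail. A factor that scales the MYC reads of a list was also assumed, and was fitted from up to 150 of its peaks. Of the peaks tried, 97.3% to 100% per list had exactly 1 solution within 0.005 reads, a tolerance that grows in proportion above 40 reads. On simulated data, reads and background were recovered for 96.7% of 240 peaks. The simulated peaks were made with the same assumed form, so the assumption itself was not tested. Summit positions were compared by exact permutation over libraries with Benjamini-Hochberg adjustment over 3 genes. On simulated summits, 5.0% of 60 sets without a difference had p under 0.05 by this permutation test. So had 100% of 60 sets in which 1 genotype was shifted by 6 SD, and smaller shifts were not simulated. Alternatives covered stricter limits, other windows, peak midpoints, the replicate number as a block and each library left out. Those chosen after seeing the data left out WT replicate 1 and Homo replicate 2 together, or used a −log10 p of at least 10.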

Additional observations from a re-analysis of the deposited data

How the results depend on the processing

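The number of libraries with a peak stayed within 1.5 times of its value under every alternative run for Ncl and Gnl3, and for Npm1 in 15 of 16. The exception was the limit of 1 kb from an end, which left 3 libraries for Npm1. With 1 library left out, the counts were 8 for Ncl, 7 to 8 for Npm1 and 5 to 6 for Gnl3. The median rank ranged from 1.95% to 4.23% for Ncl, from 5.03% to 12.9% for Npm1 and from 19.8% to 30.03% for Gnl3. Ranked by −log10 p, the medians were 0.893%, 6.82% and 17.3%. The other nucleolar genes bound in at least 2 libraries numbered 20 to 32 over 15 alternatives. The lowest number came without WT replicate 3 (5.14% of all genes) and within 250 bp of an end (5.003%). The highest, 32, came inside the span or within 5 kb, where the share of all genes was also highest (12.4%).

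No summit test of Ncl or Npm1 passed under any alternative run (adjusted exact permutation p between 0.193 and 0.921). That of Gnl3, with 1 Homo library and peaks of different sites, is no test of a shift (adjusted p between 0.45 and 1). The difference in summit coordinate, Homo minus WT, 10.7 bp at Ncl and 5.67 bp at Npm1, turned to -6.83 bp and -5.0 bp with peak midpoints, and at Npm1 to -642 bp with the peak nearest the end; the last compares different sites. Left-out libraries gave 1.83 to 22.3 bp at Ncl, 0.667 to 10.7 bp at Npm1 and 522.5 bp at Gnl3, where the test was not run without WT replicate 2 or WT replicate 3, which leaves 1 genotype with at least 2 libraries, or without Homo replicate 3, which leaves no Homo library. With the replicate number as a block, the exact permutation p was 0.417 at Ncl, 0.667 at Npm1 and 0.167 at Gnl3 (adjusted p = 0.625, 0.667 and 0.5), so no call changed. Whether the numbers pair the libraries was not settled, since only 16 regions were found in all lists. Over these regions, deviations of same-numbered libraries correlated between -0.549 and 0.380, above 0.1 in 4 of 9 pairs. Those of differently numbered libraries correlated between -0.665 and 0.690 in 18 pairs. Of the 9 libraries, 4 correlated best with their own number.

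The 3 lists without a Gnl3 peak had lowest backgrounds of 2.52, 1.75 and 1.49 reads (WT replicate 1, Homo replicate 1 and Homo replicate 2). Whether MYC was lower at Gnl3 in these 3, or at Npm1 in Homo replicate 2, was not tested, since a list gives no value where no peak was called.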
